A study of Homo sapiens with 24 samples.

Results

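The genes described here are the DNA replication and licensing genes, a fixed list of 48 genes whose products load the replicative helicase onto origins, switch it on, and copy and package the new DNA. They were found by gene symbol in the 24 deposited gene count tables, where each table held 57820 genes, and all 48 were present. The rule itself used no measured value. Sorted by role, the list held 6 subunits of the origin recognition complex, 3 licensing factors, the 6 subunits of the MCM2-7 helicase, 2 further MCM proteins, 5 genes of the helicase activators CDC45 and GINS, 6 of the sliding clamp and its loader, 3 of replication protein A, 9 of the replicative polymerases, 2 for Okazaki fragment processing, 4 for nucleotide supply and 2 of chromatin assembly factor CAF-1.

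In G1 phase the origin recognition complex recruits CDC6 and CDT1, which together place the MCM2-7 ring on DNA, a step called licensing. At the start of S phase CDC45 and the GINS complex join the ring to form the active helicase, polymerases copy the strands behind it, and geminin, encoded by GMNN, keeps CDT1 from licensing the same origin again. Many of these genes are transcribed in a wave in late G1 and S phase under the E2F family of transcription factors, so their summed level in a culture follows both how many cells are in the cycle and how strongly each of them transcribes the genes.

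RNA was sequenced from U2OS, an osteosarcoma line, and from AID-DIvA U2OS, a U2OS line that carries a vector for the AsiSI restriction enzyme fused so that 4-hydroxytamoxifen brings it into the nucleus. That inducer was not mentioned for the RNA samples. Each line was wild type (WT) or knocked out for ID3 (KO), a helix-loop-helix protein that binds and blocks other transcription factors, and whether a knockout culture was 1 clone was not stated. Mocetinostat, an inhibitor of class I histone deacetylases, was given for 24 h at a dose not given for these samples. The 8 groups of 3 libraries were AID-DIvA WT untreated, AID-DIvA WT recovered, AID-DIvA KO untreated, AID-DIvA KO recovered, U2OS WT untreated, U2OS WT treated, U2OS KO untreated and U2OS KO treated, and the series describes the replicates as biological. Recovered cells had another 24 h without the drug, whereas the U2OS cells were taken to be collected without recovery, which the design text implies but no sample label states. Recovery and cell line therefore coincide and cannot be told apart in any contrast between the 2 sets of libraries. For the 12 AID-DIvA libraries the treatment entry of the labels went against the titles, and the titles were followed.

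Library totals ran from 37878751 to 76906266 counts in AID-DIvA and from 46285533 to 70692114 in U2OS. Every member was well counted, the lowest being ORC5 with 610 counts in its lowest library. Of the members, 11 overlap a gene on the opposite strand that averaged at least 100 counts: ORC4, MCM2, MCM7, GINS2, RFC4, RFC5, RPA1, RPA3, FEN1, TYMS and CHAF1A. ID3 itself was lower in KO than in WT, with a log2 difference of -0.56 in untreated AID-DIvA (SE 0.068, adjusted p = 8.38e-06) and of -1.03 in untreated U2OS (SE 0.17, adjusted p = 0.00651). It was still counted in every KO library, at 29.3 to 67.3 CPM (counts per 1000000 library counts, with edgeR's scaling of the totals). The mesenchymal genes SPARC, COL1A1 and VIM were high in all 24 libraries, while COL1A2 did not pass 1.37 CPM and ALPL did not pass 6.95. The blood markers PTPRC and CD3E did not pass 0.407 CPM in any library. The keratin genes KRT8 and KRT18, more typical of epithelium, were at 88.4 to 309.9 CPM. The epithelial genes EPCAM and CDH1 were lower and did not pass 10.4 CPM in any library. U2OS WT untreated replicate 1 stood apart from its group: the mean chi-square per gene between its counts and those of the other 2 replicates was 103 and 91.1, against 4.32 between those 2 and at most 27.3 between replicates of any other group. Many member results that use this library are given with and without it. Genes outside the member list are given with all libraries only. ID3, for instance, was at 80.7 CPM in this replicate and at 54.3 and 52.1 CPM in the other 2, so its U2OS difference rests in part on it. AID-DIvA KO recovered replicate 1, the shallowest library, differed from its group by 20.1 and 26.9 on the same measure.

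RefSeq promoter windows on GRCh38.p14 were given for 42 of the 48 members. MCM4, MCM5, GINS4, RPA2, RPA3 and POLD3 had no entry. The 250 bases before each start were searched on both strands for 4 octamers of the E2F type, TTTGGCGC, TTTCCCGC, TTTGCCGC and TTTCGCGC, and matches were allowed to overlap. They were found for 14 of the 42 members, or 33.3%, and for 3.40% of the 27305 genes of the table (2.79% of its 35116 windows). The CCAAT letters, in either orientation, were found for 26 of the 42 members, or 61.9%, and for 37% of all genes (32.0% of all windows). Of the 30 members with a window that were lower in drug-treated U2OS cells of both genotypes, as described further on, 12 held an E2F octamer, and of the 12 other members 2 did. A match describes the letters only and says nothing about binding. The sequences shown are 4 genes that fell before recovery and hold an octamer, namely CDT1, MCM3, MCM6 and TYMS, then RRM2 and MCM10, which hold CCAAT letters but no octamer, and ORC5, which holds neither and whose RNA did not fall. They run 5′ to 3′ on the gene's own strand and end at the base before the start, with both kinds of letters in capitals. In order, they lie at chr16:88803539-88803788 on the plus strand, chr6:52284743-52284992 on the minus strand, chr2:135876444-135876693 on the minus strand, chr18:657403-657652 on the plus strand, chr2:10122318-10122567 on the plus strand, chr10:13161308-13161557 on the plus strand and chr7:104208014-104208263 on the minus strand. For RRM2 the more upstream of its 2 windows is shown, and the TYMS stretch also lies in the antisense gene TYMSOS.
CDT1: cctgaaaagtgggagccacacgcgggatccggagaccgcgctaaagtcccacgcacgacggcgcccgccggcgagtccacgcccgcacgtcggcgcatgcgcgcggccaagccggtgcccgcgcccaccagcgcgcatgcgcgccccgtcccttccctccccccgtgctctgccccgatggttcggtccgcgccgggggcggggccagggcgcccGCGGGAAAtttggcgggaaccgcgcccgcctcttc
MCM3: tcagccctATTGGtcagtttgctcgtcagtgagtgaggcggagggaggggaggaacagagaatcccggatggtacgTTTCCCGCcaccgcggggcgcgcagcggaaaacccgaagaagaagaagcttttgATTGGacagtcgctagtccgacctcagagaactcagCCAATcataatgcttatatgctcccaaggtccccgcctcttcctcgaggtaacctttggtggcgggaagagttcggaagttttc
MCM6: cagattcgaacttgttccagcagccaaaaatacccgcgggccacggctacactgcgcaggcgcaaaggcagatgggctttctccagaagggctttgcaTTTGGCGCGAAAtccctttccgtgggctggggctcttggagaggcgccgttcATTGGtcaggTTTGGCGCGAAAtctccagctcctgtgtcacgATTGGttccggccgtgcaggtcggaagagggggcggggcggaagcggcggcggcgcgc
TYMS: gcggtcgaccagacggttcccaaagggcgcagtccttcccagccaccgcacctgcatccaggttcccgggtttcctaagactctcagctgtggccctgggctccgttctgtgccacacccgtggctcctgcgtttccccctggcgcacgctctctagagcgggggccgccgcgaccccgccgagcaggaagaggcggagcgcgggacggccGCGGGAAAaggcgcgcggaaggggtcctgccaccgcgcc
RRM2: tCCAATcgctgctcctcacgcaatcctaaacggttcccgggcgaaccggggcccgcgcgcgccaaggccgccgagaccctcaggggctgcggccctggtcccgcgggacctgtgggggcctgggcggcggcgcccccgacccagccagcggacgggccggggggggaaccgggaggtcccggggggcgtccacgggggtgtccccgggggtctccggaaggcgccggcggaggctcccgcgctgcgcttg
MCM10: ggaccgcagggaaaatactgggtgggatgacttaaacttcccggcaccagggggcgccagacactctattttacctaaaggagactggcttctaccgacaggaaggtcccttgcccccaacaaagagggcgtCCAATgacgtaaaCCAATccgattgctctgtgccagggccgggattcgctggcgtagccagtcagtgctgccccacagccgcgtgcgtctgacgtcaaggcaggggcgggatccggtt
ORC5: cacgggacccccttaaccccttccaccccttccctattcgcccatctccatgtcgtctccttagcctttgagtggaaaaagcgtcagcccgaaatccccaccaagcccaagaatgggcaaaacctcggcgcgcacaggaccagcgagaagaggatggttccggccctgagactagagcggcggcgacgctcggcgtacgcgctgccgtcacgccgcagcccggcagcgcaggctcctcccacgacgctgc

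The E2F octamer of CDT1 begins 35 bases before the start and that of TYMS 39 bases before it. In MCM6 the octamer TTTGGCGC occurs at 2 places, the farther one 152 bases before the start, and each time its last letters also open the reverse complement of TTTCGCGC.

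Compared per length, as the authors' TPM (transcripts scaled for gene length and library total) averaged over all 24 libraries, PCNA was the most abundant member at 472 TPM, followed by TK1 at 452, TYMS at 365 and POLD2 at 350.0. PCNA encodes the sliding clamp that tethers polymerases to DNA. The ranges of these genes over the libraries overlapped, with PCNA between 329 and 585 TPM and TK1 between 256 and 663, so that the order of the leading members was not fixed. ORC4, a subunit of the origin recognition complex, was the least abundant at 10.5 TPM, and its highest library at 14.9 TPM lay under the lowest libraries of 46 of the 47 other members.

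Before recovery, most of the replication genes were lower in mocetinostat-treated than in untreated U2OS cells of both genotypes. A gene was called when its Benjamini-Hochberg adjusted p, from edgeR's quasi-likelihood test over all genes that passed a filter on low counts, was below 0.05. In WT 33 of the 48 members fell and 2 rose, and in KO 36 fell and 3 rose. Over all genes tested, 22.9% fell and 26.0% rose in WT, and 34.0% fell and 35.8% rose in KO. The median member log2 fold change was -0.49 in WT and -0.34 in KO, where the median of all genes was 0.01 and 0.00. The same 33 members fell in both genotypes, and ORC4 and PRIM2 rose in both, and the share of all genes called in both is not given here. Few changes were large, since only MCM5, TYMS and MCM7 fell by more than 1 on the log2 scale in WT and only MCM5 and TYMS did so in KO, against 5.06% and 5.77% of all genes. None rose by more than 1, where 13.6% and 14.6% of all genes did. Without U2OS WT untreated replicate 1, 39 members fell and 3 rose in WT, over a background of 32.5% and 33.9%. In bulk RNA fewer cells in S phase and less RNA per cell cannot be told apart.

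**Figure D1:**
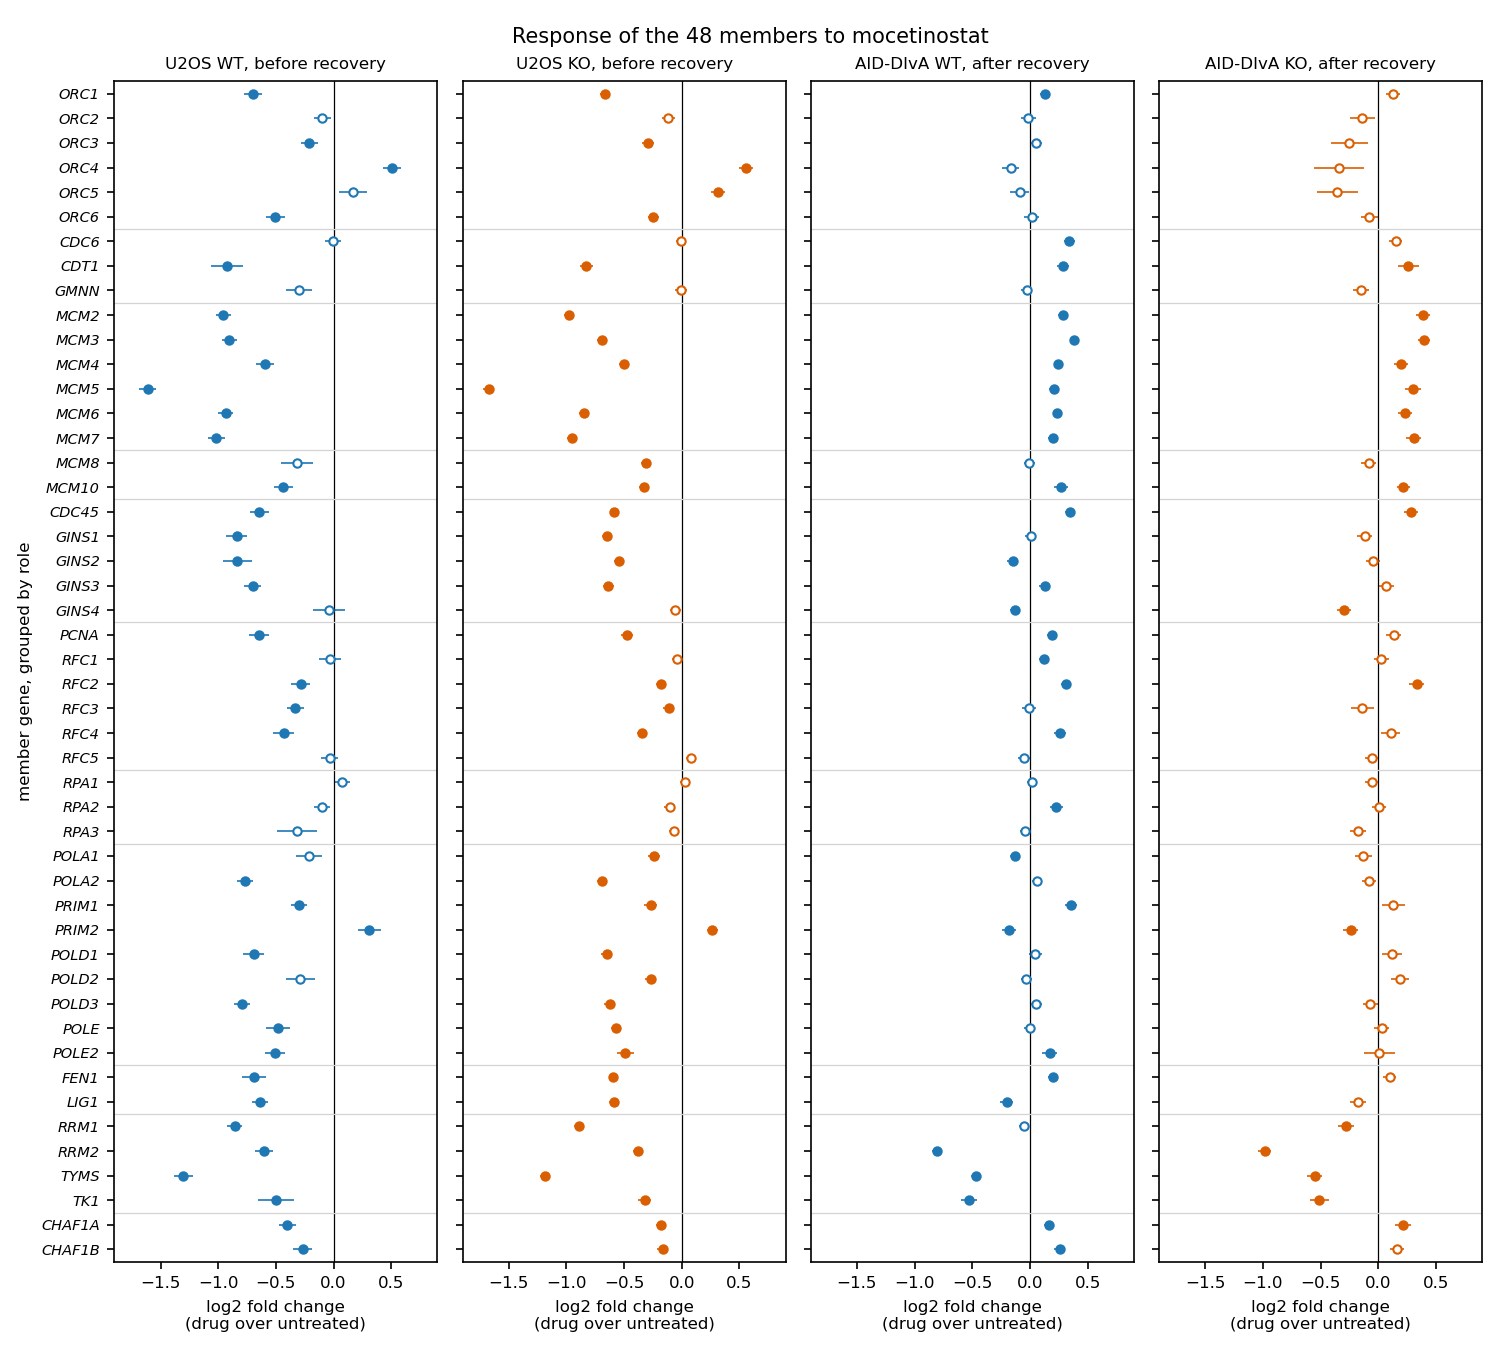
Log2 fold change of drug-exposed over untreated cells for the 48 members, 1 row per gene with lines between roles, in 4 comparisons of 3 against 3 libraries; bars show 1 standard error, and filled points passed an adjusted p of 0.05. MCM5 and TYMS lie farthest left before recovery, and RRM2, TYMS and TK1 lie left of zero after it.

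The MCM2-7 helicase core showed the largest drop as a group. All 6 subunits fell in both genotypes, with a median of -0.94 in WT and -0.90 in KO. MCM5, at chr22:35796056-35821423 on the plus strand of hg19, was the member that fell most. It was at 289, 274 and 261 CPM in the U2OS WT untreated libraries and at 91.95, 89.4 and 86.6 in the treated ones. It was at 305, 296 and 287 CPM in U2OS KO untreated and 95.3, 87.00 and 94.5 in U2OS KO treated. Treated and untreated libraries did not overlap in either genotype, and the level was 3.06-fold lower in WT (log2 -1.61, SE 0.076, adjusted p = 3.57e-06) and 3.19-fold lower in KO (log2 -1.67, SE 0.047, adjusted p = 1.27e-18).

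MCM2, a subunit that also binds histones at the fork, moved in the same direction and by less. Its levels were 298, 314 and 300.2 CPM in U2OS WT untreated against 158, 158 and 152 in treated libraries, and 324, 333 and 324 in U2OS KO untreated against 165, 161 and 171. The groups were again apart, and the log2 fold change was -0.96 in WT (SE 0.068, adjusted p = 2.27e-05) and -0.97 in KO (SE 0.042, adjusted p = 2.42e-15). MCM7 went from 472, 439 and 428 to 222, 217 and 218 CPM in WT, a log2 fold change of -1.02 (SE 0.073). In KO it went from 487, 478 and 475 to 255, 238 and 248 CPM, or -0.95 (SE 0.043). MCM3 fell by 0.90 on the log2 scale in WT and by 0.69 in KO. MCM4 fell least of the 6, by 0.59 in WT and 0.50 in KO.

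**Figure D2:**
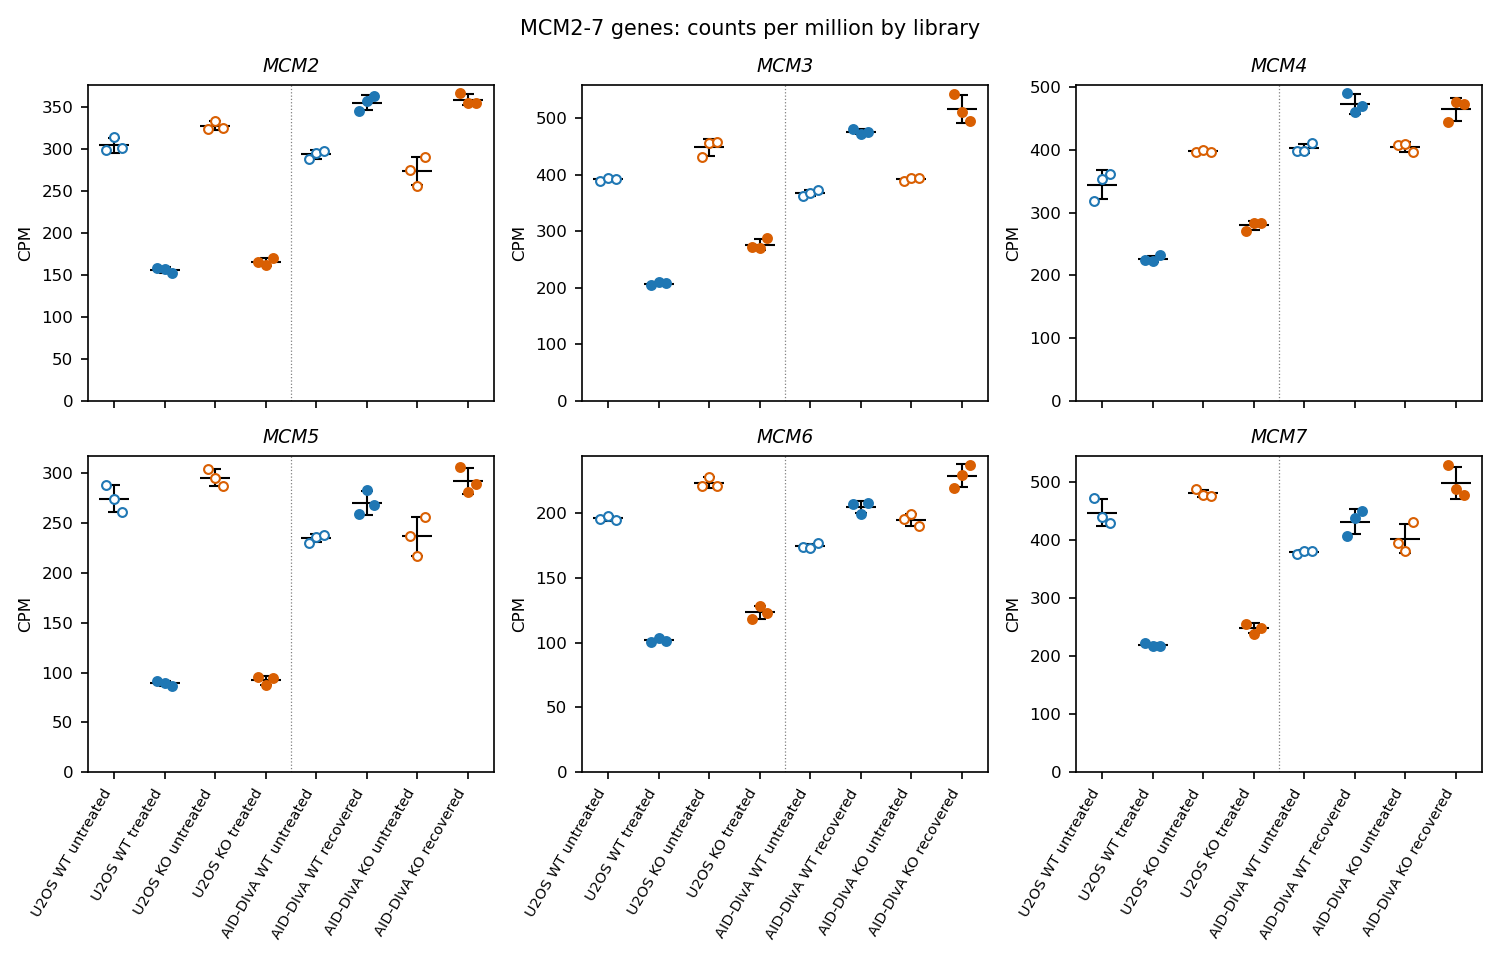
CPM of the 6 MCM2-7 genes in every library, with open points for untreated and filled points for drug-exposed cells, WT in blue and KO in orange; black bars mark the mean and 1 SD of 3 libraries, and the dotted line parts U2OS from AID-DIvA. For MCM5 the treated U2OS libraries lie between 86.6 and 95.3 CPM, and all recovered libraries lie between 259 and 307.

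The licensing factors split. CDT1, the loader that geminin restrains, was at 109.7, 80.3 and 77.5 CPM in U2OS WT untreated and at 48.5, 44.02 and 47.5 in treated libraries. In KO it was at 99.7, 91.3 and 90.7 CPM untreated and 56.7, 47.9 and 53.2 treated. No treated library reached an untreated one, and the log2 fold change was -0.93 (SE 0.14, adjusted p = 0.00113) in WT and -0.83 (SE 0.056, adjusted p = 9.82e-12) in KO. Replicate 1 was the highest of the U2OS WT untreated libraries, and without it the WT value was -0.75.

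CDC6, its partner in loading, was measured at 163, 171 and 167 CPM in U2OS WT untreated and 166, 162 and 169 in treated libraries, and at 160.0, 158 and 159.9 and 152, 162 and 159 in the KO groups. These ranges overlapped in both genotypes, and the log2 fold change of CDC6 was 0.00 (SE 0.065) in WT and -0.01 (SE 0.042) in KO. GMNN was at 42.5, 33.8 and 32.5 CPM in U2OS WT untreated and 30.5, 28.8 and 28.6 in treated libraries, a log2 fold change of -0.30 that did not pass the test (SE 0.11, adjusted p = 0.0615). Without U2OS WT untreated replicate 1 it passed, at -0.17. In KO, geminin RNA was at 41.6, 42.7 and 39.8 CPM untreated and 39.8, 43.2 and 40.03 treated, with a log2 value of -0.01 (SE 0.051).

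The origin recognition complex had members called in both directions in each genotype, as the polymerases did through PRIM2. ORC1, the subunit whose level varies through the cycle, went from 59.3, 68.2 and 64.9 to 39.3, 38.6 and 39.6 CPM in WT and from 70.04, 72.7 and 74.9 to 44.97, 45.7 and 46.1 in KO. Its treated libraries all lay under its untreated ones, with log2 fold changes of -0.70 (SE 0.076, adjusted p = 0.000195) and -0.66 (SE 0.046, adjusted p = 1.18e-11). ORC3 and ORC6 also fell in both genotypes, ORC3 in WT not being called without untreated replicate 3 or any 1 treated library, and ORC2 passed the test in neither. ORC4, at chr2:148687968-148779147 on the minus strand of hg19, moved the other way. It was at 22.3, 21.6 and 19.9 CPM in U2OS WT untreated and 29.9, 29.8 and 30.5 in treated libraries, and at 23.9, 25.1 and 22.9 and 35.3, 38.5 and 31.8 in KO. All treated libraries were higher, by 0.51 on the log2 scale in WT (SE 0.075, adjusted p = 0.000949) and 0.56 in KO (SE 0.063, adjusted p = 4.45e-08). ACVR2A and MBD5 overlap ORC4 on the opposite strand. These counts took reads from either strand, and with counts of the reverse strand alone the ORC4 values were 0.52 and 0.55. ORC5 rose in KO, from 24.1, 22.2 and 20.99 to 26.9, 29.8 and 26.5 CPM (log2 0.31, SE 0.061, adjusted p = 0.000106). In WT its value of 0.17 did not pass (adjusted p = 0.283), though it did at 0.31 without U2OS WT untreated replicate 1. PRIM2, the large subunit of primase, rose from 33.4, 38.3 and 42.4 to 44.3, 48.3 and 47.96 CPM in WT (0.31, SE 0.098, adjusted p = 0.0316) and from 42.8, 46.9 and 43.6 to 53.6, 53.7 and 52.2 in KO (0.26, SE 0.049, adjusted p = 4.52e-05). The WT call of PRIM2 was lost without U2OS WT untreated replicate 2 or without any 1 of the U2OS WT treated libraries, where the adjusted p was at most 0.11.

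Of the helicase activators, CDC45 and 3 of the 4 GINS genes fell in both genotypes and GINS4 did not pass, although in WT it was called at -0.20 without U2OS WT untreated replicate 1. CDC45 dropped from 136, 117 and 119 to 79.2, 80.1 and 77.4 CPM in WT and from 137, 142 and 137 to 92.01, 90.2 and 94.5 in KO. That amounted to -0.64 (SE 0.083, adjusted p = 0.000477) and -0.58 (SE 0.043, adjusted p = 3.22e-11) on the log2 scale, with no overlap between groups. MCM10, which helps the loaded helicase to fire, fell by less, from 55.1, 64.9 and 65.5 to 45.7, 46.1 and 44.5 CPM in WT (log2 -0.43, SE 0.086, adjusted p = 0.00395). In KO it started higher, at 108, 115 and 111 CPM, and reached 85.2, 91.5 and 88.7 (log2 -0.33, SE 0.045, adjusted p = 7.55e-07).

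At the clamp, PCNA went from 243, 203 and 211 to 142, 133 and 142 CPM in WT and from 241, 259 and 255 to 167, 189 and 185 in KO. Its log2 fold changes were -0.65 (SE 0.09, adjusted p = 0.000733) and -0.48 (SE 0.048, adjusted p = 7.56e-09), with the groups apart each time. The clamp loader genes RFC2, RFC3 and RFC4 fell by 0.11 to 0.43 on the log2 scale in both genotypes, though RFC2 in WT was not called without any 1 of the treated libraries and RFC3 in KO without untreated replicate 2 or 3 or treated replicate 1 or 3, and RFC1 and RFC5 did not pass. Without U2OS WT untreated replicate 1, RFC1 was called in WT, at -0.12. RPA1, RPA2 and RPA3, which coat single-stranded DNA, did not pass in either genotype and had values between -0.32 and 0.08. Among the polymerase genes, POLA2, PRIM1, POLD1, POLD3, POLE and POLE2 fell in both genotypes, by 0.27 to 0.79, with PRIM1 in WT not called without treated replicate 2, whereas POLA1 and POLD2, like MCM8, were called in KO but not in WT. Without U2OS WT untreated replicate 1 all 3 were called in WT too, at -0.34 for POLA1, -0.13 for POLD2 and -0.48 for MCM8. FEN1 and LIG1, which trim and seal Okazaki fragments, fell in both genotypes by 0.59 to 0.69. CHAF1A and CHAF1B, which deposit histones on new DNA, fell by 0.17 to 0.40, and CHAF1B in WT lost its call without untreated replicate 3 or any 1 treated library.

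All 4 nucleotide supply genes fell in both genotypes. TYMS, thymidylate synthase, at chr18:657604-673578 on the plus strand of hg19, was second only to MCM5. It was at 359, 318 and 316 CPM in U2OS WT untreated and 132, 131 and 137 in treated libraries (log2 -1.30, SE 0.081, adjusted p = 1.22e-05), and at 364, 375 and 384 against 163, 170.0 and 157 in KO (log2 -1.19, SE 0.044, adjusted p = 1.46e-16). Neither genotype showed overlap. C18orf56 and ENOSF1 overlap TYMS on the opposite strand, and with reverse-strand counts the TYMS values were -1.29 and -1.24. RRM2, the regulated subunit of ribonucleotide reductase, fell from 341, 303 and 325 to 206, 219 and 209 CPM in WT (log2 -0.60, SE 0.077, adjusted p = 0.000448) and from 366, 367 and 379 to 283, 292 and 275 in KO (log2 -0.38, SE 0.042, adjusted p = 3.14e-08). RRM1, its partner, fell by 0.86 in WT and 0.89 in KO. TK1, the thymidine salvage kinase, was at 405, 282 and 269 CPM in U2OS WT untreated and 229, 219 and 224 in treated libraries. Its fall of 0.50 in WT (SE 0.16, adjusted p = 0.0293) became 0.29 without U2OS WT untreated replicate 1, the highest library, and was not called without any 1 of the U2OS WT treated libraries. In KO, TK1 went from 332, 323 and 323 to 289, 234 and 257 CPM (log2 -0.32, SE 0.057, adjusted p = 3.94e-05).

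After recovery, in AID-DIvA cells, the picture was mixed, with fewer and smaller falls. In WT 22 members were higher than in untreated cells and 8 were lower, over a background of 23.9% and 23.0% of all genes. In KO 11 were higher and 6 lower, over 20.2% and 19.9%. No member differed by more than 1 on the log2 scale in either genotype, where 4.86% of all genes were higher and 2.52% lower by that much in WT and 4.90% and 2.56% in KO, and the member medians were 0.05 and 0.01. The 11 members higher in KO were all among the 22 higher in WT: CDT1, all 6 MCM2-7 genes, MCM10, CDC45, RFC2 and CHAF1A. All 11 were also among the members called lower in both genotypes of treated U2OS, the other line, as 33 of the 48 members were. Shares of all genes for these overlaps are not given here. The members lower in both genotypes after recovery were RRM2, TYMS, TK1, PRIM2 and GINS4, though GINS4 in WT lost its call without any 1 of 5 of the 6 libraries, all but AID-DIvA WT recovered replicate 1. These counts were sensitive to single libraries: the WT count of lower members was 4 without AID-DIvA WT recovered replicate 2, 5 without recovered replicate 3 or any 1 untreated replicate, and 12 without recovered replicate 1, while the KO count of higher members was 7 without AID-DIvA KO recovered replicate 2. Without AID-DIvA KO recovered replicate 1, the shallowest library, 13 were higher and 7 lower in KO. The shares of all genes in these reduced fits are not given here, so the counts show only how far the calls moved.

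The MCM2-7 genes stood above the untreated level in both genotypes, with a median of 0.24 in WT and 0.31 in KO. MCM3 rose most of all members, from 363, 368 and 373 to 481, 471 and 475 CPM in WT (log2 0.38, SE 0.036, adjusted p = 1.85e-06) and from 389, 393 and 394 to 542, 509.7 and 495 in KO (log2 0.40, SE 0.051, adjusted p = 0.000253). Recovered libraries lay above untreated ones for each of the 6 genes in each genotype. MCM5 was at 230.3, 236 and 238 CPM in AID-DIvA WT untreated and 259, 283 and 269 in recovered libraries (log2 0.21, SE 0.043, adjusted p = 0.00111), and at 237, 217 and 256 against 307, 281 and 289 in KO (log2 0.30, SE 0.07, adjusted p = 0.00727). MCM2 was at 287, 295 and 298 against 345, 357 and 362 CPM in WT (log2 0.28, SE 0.039, adjusted p = 4.68e-05) and at 274, 256 and 290.1 against 366, 355 and 354 in KO (log2 0.39, SE 0.062, adjusted p = 0.000878). The rise of MCM4 in KO, 0.20, was the weakest of these and lost its call without any 1 of 5 of the 6 libraries, all but AID-DIvA KO recovered replicate 1, and the rise of MCM6 in KO lost it without AID-DIvA KO recovered replicate 2.

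Of the licensing factors, CDC6 and CDT1 rose in WT and CDT1 alone in KO, and of the helicase activators CDC45 and GINS3 rose and GINS2 and GINS4 fell in WT, while CDC45 rose and GINS4 fell in KO. CDC6 went from 156, 157 and 156 to 214, 187 and 189.8 CPM in WT, with no overlap (log2 0.34, SE 0.05, adjusted p = 8.85e-05). In KO it went from 148, 149 and 142 to 158, 165 and 163 CPM, and the log2 value of 0.15 did not pass (SE 0.058, adjusted p = 0.0641). CDT1 was at 69.4, 72.4 and 73.4 against 81.6, 90.5 and 88.9 CPM in WT (log2 0.29, SE 0.05, adjusted p = 0.000373), and at 76.95, 71.03 and 87.6 against 104, 91.3 and 87.6 in KO, where the groups met and the value of 0.26 (SE 0.089, adjusted p = 0.04) was not called without AID-DIvA KO recovered replicate 1 or 2 or untreated replicate 1 or 2, and CHAF1A in KO lost its call without the same 4 libraries. CDC45 rose from 103, 107 and 109 to 133, 135 and 135 CPM in WT (log2 0.35, SE 0.041, adjusted p = 1.4e-05) and from 116, 112 and 121 to 147, 142 and 137 in KO (log2 0.29, SE 0.058, adjusted p = 0.00366). MCM10 rose from 66.7, 65.98 and 68.4 to 88.7, 76.03 and 76.01 CPM in WT (log2 0.27, SE 0.058) and from 107, 108 and 102 to 126, 121 and 122 in KO (log2 0.22, SE 0.055). In these last genes the recovered libraries all lay above the untreated ones. PRIM1, the catalytic primase subunit, rose in WT from 74.7, 72.6 and 77.2 to 101, 96.4 and 88.3 CPM (log2 0.36, SE 0.053, adjusted p = 9.83e-05). Its KO libraries, at 84.5, 89.8 and 78.3 and 79.3, 96.7 and 99.9 CPM, overlapped. RFC2, a clamp loader subunit, rose from 86.4, 92.1 and 90.8 to 111, 111 and 110.0 CPM in WT (log2 0.31, SE 0.042) and from 89.7, 89.6 and 95.9 to 125, 112 and 110.4 in KO (log2 0.33, SE 0.064).

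ORC1 and PCNA were higher by small amounts that passed in WT. ORC1 was at 63.9, 66.5 and 66.97 CPM in AID-DIvA WT untreated and 73.3, 71.2 and 70.4 in recovered libraries (log2 0.13, SE 0.044, adjusted p = 0.0244), a call lost without AID-DIvA WT recovered replicate 2 or any 1 untreated replicate. In KO it was at 60.8, 60.8 and 64.6 and 71.3, 65.6 and 66.4 CPM (log2 0.13, SE 0.063, adjusted p = 0.135). PCNA was at 208, 213 and 220.1 against 247, 241 and 237 CPM in WT (log2 0.19, SE 0.039, adjusted p = 0.00147) and at 239.9, 239.6 and 236 against 247, 271 and 267 in KO (log2 0.14, SE 0.064, adjusted p = 0.119). Neither gene's groups overlapped. GMNN, at 34.7, 36.9 and 36.97 against 36.5, 34.8 and 34.4 CPM in WT and 45.9, 45.5 and 42.8 against 38.9, 40.9 and 41.3 in KO, passed in neither. ORC4 was at 33.1, 30.3 and 31.6 CPM in AID-DIvA WT untreated and 30.8, 28.6 and 24.8 in recovered libraries, and at 41.2, 35.3 and 32.00 and 17.9, 30.5 and 36.4 in KO. ORC5 was at 36.8, 38.8 and 37.2 and 40.4, 34.3 and 30.7 CPM in WT and at 34.7, 33.6 and 29.8 and 17.4, 28.6 and 30.02 in KO. Their log2 fold changes did not pass, at -0.17 in WT and -0.34 in KO for ORC4 and -0.09 and -0.35 for ORC5. The recovered groups overlapped the untreated ones for both genes, and AID-DIvA KO recovered replicate 1 was the lowest library for each. PRIM2 was lower, at 52.2, 55.1 and 49.8 against 49.9, 43.6 and 44.4 CPM in WT (log2 -0.18, SE 0.06, adjusted p = 0.0253) and 53.9, 54.6 and 52.2 against 43.6, 46.3 and 46.02 in KO (log2 -0.24, SE 0.067, adjusted p = 0.0175). Its WT groups overlapped, and its call was lost in WT without any 1 of AID-DIvA WT recovered replicate 2 or 3 or untreated replicate 1 or 2, and in KO without untreated replicate 1 or 2.

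Of the nucleotide supply genes, RRM2, TYMS and TK1 were lower in recovered than in untreated AID-DIvA cells of both genotypes, and RRM1 in KO only. RRM2, at chr2:10262455-10271545 on the plus strand of hg19, was at 320.4, 339 and 352 CPM in AID-DIvA WT untreated and 192, 191 and 191 in recovered libraries, 1.75-fold lower (log2 -0.81, SE 0.042, adjusted p = 6.06e-09). In KO it went from 367, 373 and 358 to 179, 189 and 187 CPM, 1.98-fold lower (log2 -0.98, SE 0.058, adjusted p = 1.56e-06). The recovered libraries were tightly grouped and far from the untreated ones in both genotypes. TYMS was at 354, 359 and 359 against 263, 257 and 248 CPM in WT (log2 -0.47, SE 0.038, adjusted p = 4.46e-07) and at 387, 402 and 381 against 254, 275 and 268 in KO (log2 -0.55, SE 0.062, adjusted p = 0.000103). TK1 was at 259, 276 and 277 against 164, 201 and 195 CPM in WT (log2 -0.53, SE 0.067, adjusted p = 4.04e-05) and at 287, 264 and 325 against 211, 198 and 207 in KO (log2 -0.51, SE 0.079, adjusted p = 0.000794). None of these groups overlapped, and RRM2, TYMS and TK1 were the only members called lower in all 4 treatment comparisons. The share of all genes called lower in all 4 is not given here. RRM1 was lower by 0.28 in KO (adjusted p = 0.0125) and had a value of -0.05 in WT that did not pass.

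**Figure D3:**
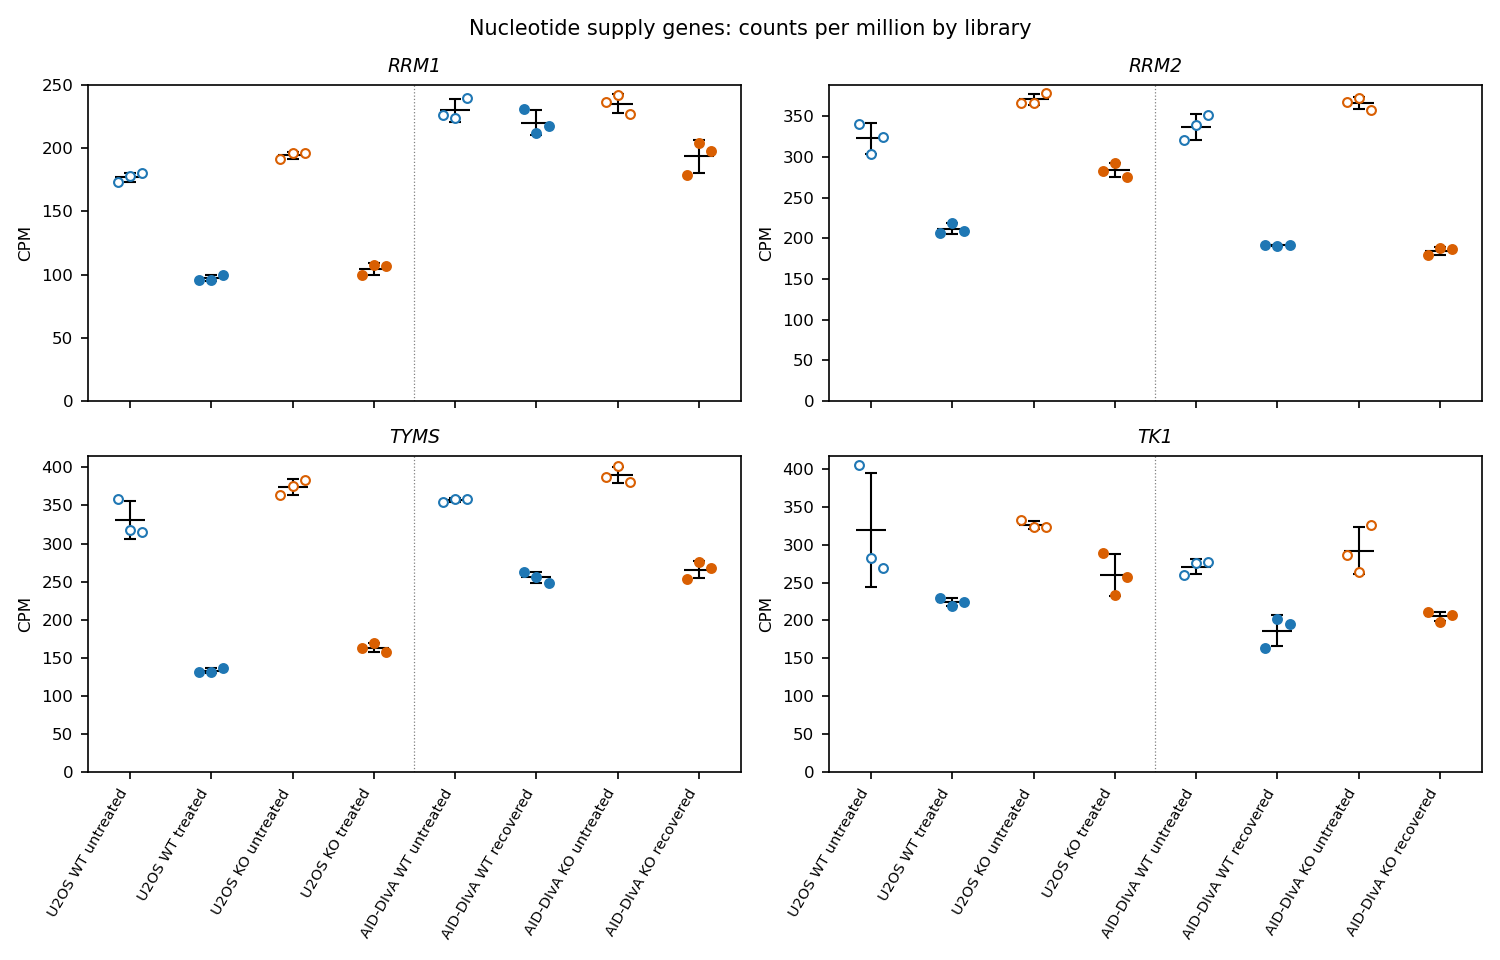
CPM of the 4 nucleotide supply genes in every library, drawn as for the MCM2-7 genes (open points untreated, filled points drug-exposed, WT blue, KO orange, bars mean and 1 SD of 3 libraries). RRM2 lies between 179 and 192 CPM in the recovered libraries and between 320.4 and 373 CPM in the untreated AID-DIvA ones.

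The response after recovery was then compared with the response before it, as the AID-DIvA log2 fold change minus the U2OS one in a fit of all 24 libraries. This difference was called above zero, at an adjusted p below 0.05, for 34 members in WT and 29 in KO, where 22.6% and 21.7% of all genes were, and called below zero for 3 and 4, where 22.8% and 24.3% were. Whether called or not, its sign was positive for 40 members in WT and 36 in KO. The member medians were 0.58 and 0.46, against -0.01 and -0.04 for all genes. It was called above zero in both genotypes for 28 members and below zero in both for ORC4, PRIM2 and RRM2. Shares of all genes by sign alone, or called in both genotypes, are not given here. MCM5 had the largest difference, 1.82 in WT (SE 0.089, adjusted p = 1.61e-14) and 1.98 in KO (SE 0.089, adjusted p = 6.41e-15). MCM2, MCM3, MCM6, MCM7 and CDT1 also differed by more than 1 in both genotypes, for 6 of 48 members against 5.22% of all genes in WT and 5.62% in KO, and none differed by less than -1, where 10.6% and 11.0% of all genes did. TYMS was low at both stages but less so after recovery, with a difference of 0.83 in WT (SE 0.08, adjusted p = 3.32e-09) and 0.64 in KO (SE 0.08, adjusted p = 2.4e-07). The response of RRM2 was lower after recovery than before it, by 0.21 in WT (SE 0.076, adjusted p = 0.0292) and 0.60 in KO (SE 0.076, adjusted p = 3.72e-07), and the WT value was not called without any 1 of 8 libraries, namely AID-DIvA WT recovered replicates 1, 2 and 3 and untreated replicates 2 and 3, U2OS WT untreated replicate 2 and treated replicate 2, and U2OS KO untreated replicate 2, where the adjusted p reached 0.096. For TK1 the difference was -0.03 in WT (SE 0.15) and -0.18 in KO (SE 0.15), neither of which passed. The WT value rests in part on U2OS WT untreated replicate 1. Without that library the TK1 log2 fold change in U2OS WT was -0.29, nearer zero than with all libraries.

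**Figure D4:**
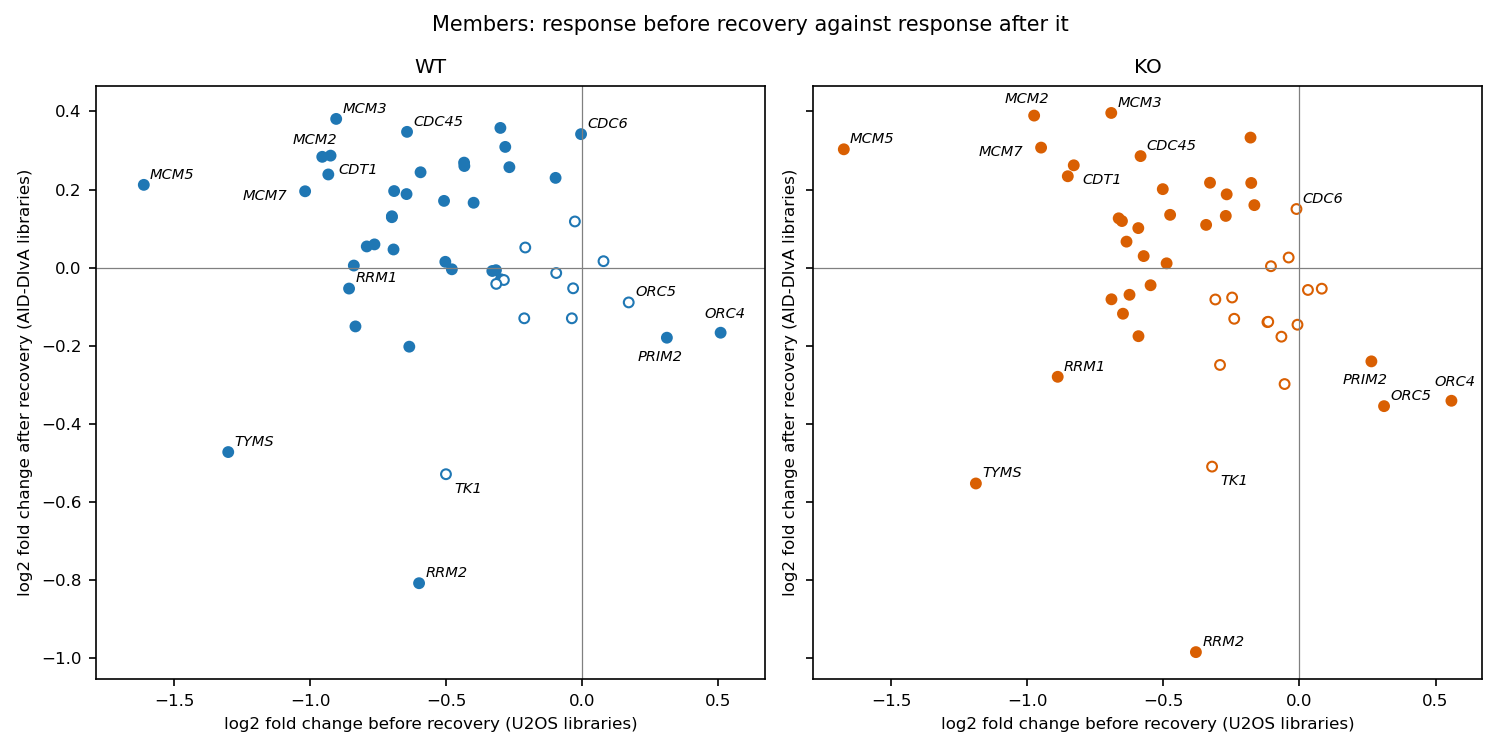
Log2 fold change of each member before recovery (U2OS libraries, x axis) against that after recovery (AID-DIvA libraries, y axis), WT left and KO right; filled points are members whose 2 responses differed at an adjusted p of 0.05. The MCM2-7 genes lie left of and above zero, while RRM2, TYMS and TK1 lie left of and below it.

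Whether the response differed between genotypes was tested as an interaction, the KO log2 fold change minus the WT one. No member was called in AID-DIvA or in U2OS with edgeR, where 0.762% of all genes were called higher and 0.451% lower in AID-DIvA and 1.10% and 1.06% in U2OS. At an unadjusted p below 0.05 there were 6 members in each line, and 48 were tested. The share of all genes at that cut is not given here, so this count cannot be set against it. With DESeq2 none was called in AID-DIvA and MCM3 alone in U2OS. The interaction values ran from -0.29 to 0.23 in AID-DIvA and from -0.09 to 0.30 in U2OS, with a median SE of 0.081 and 0.092. For MCM3 in U2OS the value was 0.22 (SE 0.074, adjusted p = 0.188), that is a smaller fall in KO. Without U2OS WT untreated replicate 1, MCM3 at 0.22, RRM2 at 0.18 and CHAF1A at 0.19 were called higher and none lower, over 4.46% and 4.56% of all genes.

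KO and WT were also compared in untreated cells of each line. In AID-DIvA 13 members were higher in KO and 4 lower, over a background of 18.6% and 18.1% of all genes. In U2OS 2 were higher and 1 lower, over 6.56% and 8.63%, so neither U2OS count stood above the share of all genes. No member differed by more than 1, where 2.27% of all genes were higher and 2.30% lower by that much in AID-DIvA and 1.42% and 2.84% in U2OS. MCM10 and LIG1 were called higher, and POLD2 lower, in both lines. The share of all genes called alike in both lines is not given here. The U2OS count turned on 1 library: without U2OS WT untreated replicate 1, 39 members were higher in KO and 2 lower, over 20.5% and 20.6%, and without any 1 of the other libraries 1 was higher and none lower. In AID-DIvA it was 5 higher and 2 lower without WT untreated replicate 1 or 2, and 8 and 2 without WT untreated replicate 3. It was 10 and 2 without KO untreated replicate 1, and 17 and 9 without KO untreated replicate 3. Except for the fit without U2OS WT untreated replicate 1, the shares of all genes are not given for these fits. The member median in U2OS was 0.14 with all libraries and 0.15 without replicate 1.

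MCM10, at chr10:13203554-13253104 on the plus strand of hg19, was at 66.7, 65.98 and 68.4 CPM in AID-DIvA WT untreated and 107, 108 and 102 in AID-DIvA KO untreated. Its 2 groups were far apart, by 0.63 on the log2 scale (SE 0.043, adjusted p = 1.12e-08). In U2OS it was at 55.1, 64.9 and 65.5 CPM in WT and 108, 115 and 111 in KO, a log2 difference of 0.85 (SE 0.088, adjusted p = 0.000931) that was 0.77 without U2OS WT untreated replicate 1. Every one of the 12 KO libraries lay above the WT libraries of the same treatment and line.

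RPA3, the smallest subunit of replication protein A, was at 84.2, 88.1 and 88.1 CPM in AID-DIvA WT untreated and 158, 149 and 149.9 in KO (log2 0.79, SE 0.043, adjusted p = 9.69e-10). In U2OS it was at 122, 75.9 and 83.3 CPM in WT and 136, 147 and 144 in KO, a difference of 0.60 that did not pass (SE 0.17, adjusted p = 0.054). Replicate 1 was the high WT library, and without it RPA3 passed, at 0.84. The antisense gene RPA3-AS1 overlaps it on the other strand, and with reverse-strand counts the values were 0.79 in AID-DIvA and 0.61 in U2OS, where RPA3 then passed (adjusted p = 0.0439). The other RPA genes, RPA1 and RPA2, had log2 differences from -0.07 to 0.06 and passed in neither line.

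POLD2, a small subunit of polymerase delta, was lower in KO. Its levels were 436, 462 and 458 CPM in AID-DIvA WT untreated and 313, 291 and 337 in KO (log2 -0.55, SE 0.053, adjusted p = 6.29e-07), and 621, 464 and 463 in U2OS WT untreated and 388, 373 and 378 in KO (log2 -0.44, SE 0.12, adjusted p = 0.0495). No KO library reached a WT one. The U2OS value was -0.29 without WT replicate 1, and it was not called without any 1 of the other 5 libraries. LIG1, DNA ligase I, was higher in KO, at 163, 163 and 163 against 187, 176 and 201 CPM in AID-DIvA (log2 0.18, SE 0.051, adjusted p = 0.0115) and 169, 160.1 and 159 against 202, 199 and 203 in U2OS (log2 0.30, SE 0.067, adjusted p = 0.021). The call was lost in AID-DIvA without WT untreated replicate 3, and in U2OS without any 1 library other than WT replicate 1. Of the MCM2-7 genes, MCM6 alone was called in AID-DIvA untreated cells, at 0.13, a call lost without WT untreated replicate 1 or 2, and none was in U2OS with all libraries.

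**Figure D5:**
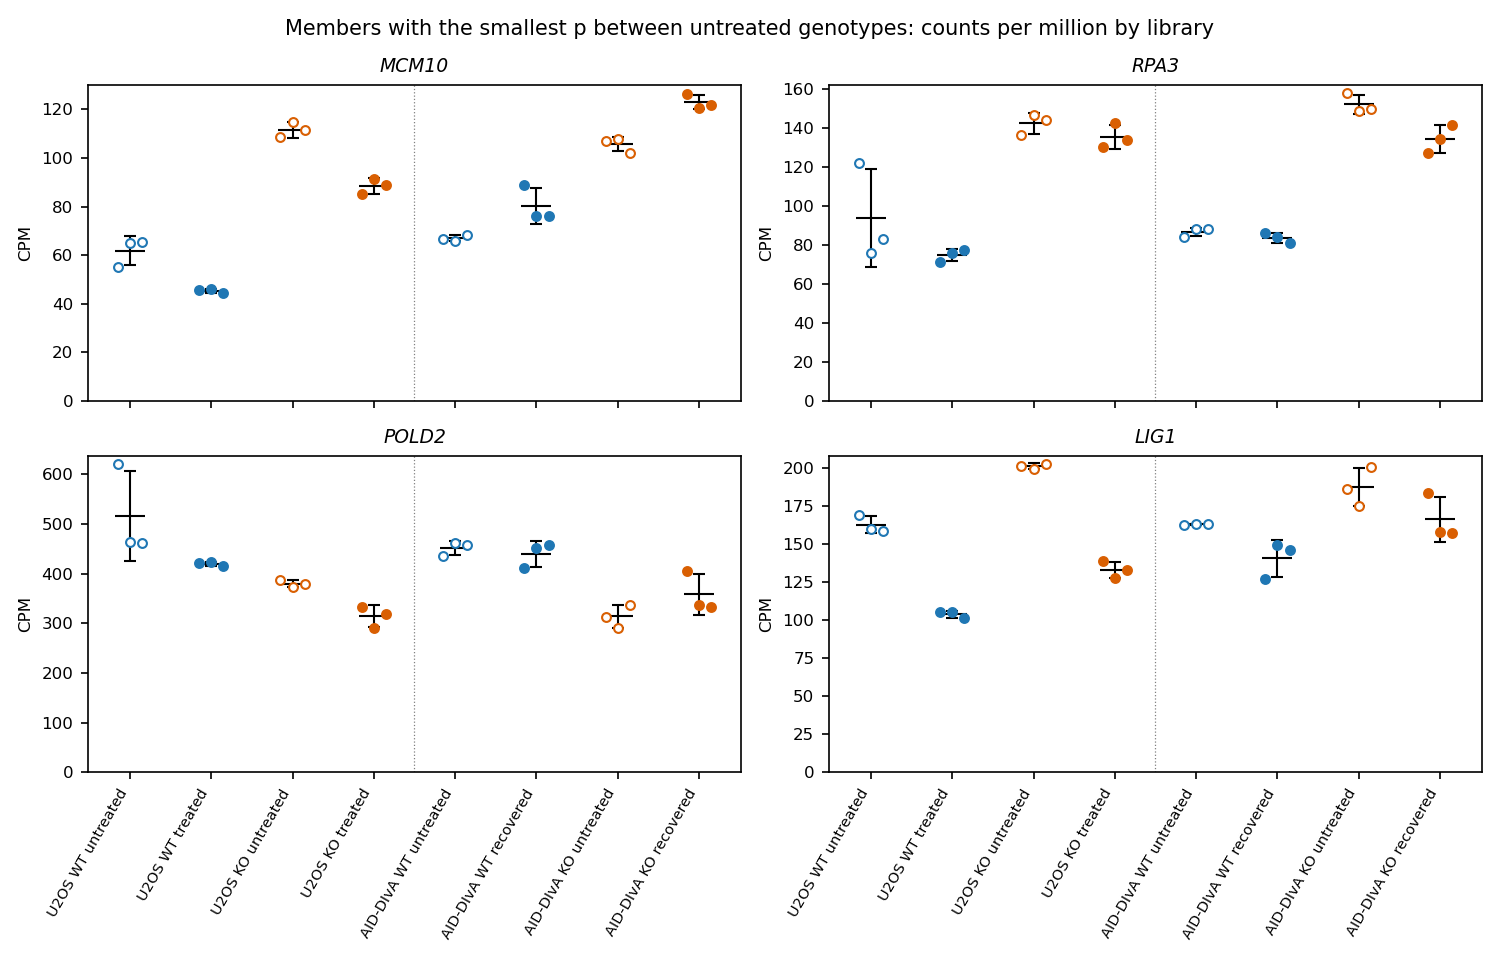
CPM of MCM10, RPA3, POLD2 and LIG1 in every library (open points untreated, filled points drug-exposed, WT blue, KO orange, bars mean and 1 SD of 3 libraries, dotted line between U2OS and AID-DIvA). The KO libraries of MCM10 lie above and those of POLD2 below the WT libraries of the same line and treatment.

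Beside the members, 49 other replication genes were read from a second list. Before recovery 31 of the 49 fell and 3 rose in WT, and 35 fell and 7 rose in KO, with medians of -0.44 and -0.39, where 22.9% of all genes fell and 26.0% rose in WT and 34.0% and 35.8% in KO. After recovery 18 were lower and 8 higher in WT, over 23.0% and 23.9% of all genes, and 19 lower and 7 higher in KO, over 19.9% and 20.2%. UHRF1, which recruits the maintenance methyltransferase to new DNA, fell by 0.98 in WT and 1.04 in KO before recovery. MTBP, a partner of the firing factor Treslin, fell by 0.97 and 1.002, and thymidylate kinase, DTYMK, by 1.01 and 0.88. The WT value of DTYMK rests in part on U2OS WT untreated replicate 1, at 182.6 CPM, where replicates 2 and 3 were at 115.9 and 115.6 CPM. FAM111A, a protease at forks, fell by 0.95 in WT and 1.07 in KO. SAMHD1, which breaks down deoxynucleotides, went the opposite way to the supply genes: it rose from 17.8, 18.6 and 18.5 to 62.1, 61.8 and 62.4 CPM in U2OS WT (log2 1.77, SE 0.068) and from 30.05, 27.6 and 28.7 to 69.9, 67.8 and 69.4 in KO (log2 1.27, SE 0.049). After recovery, in AID-DIvA cells, it was higher by 0.61 in WT and 0.38 in KO. Lower after recovery were TOP2A, a topoisomerase of mitotic cells, by 0.61 in WT and 0.98 in KO, the histone chaperone gene ASF1B by 0.62 and 0.80, and DBF4 and DBF4B, activators of the origin-firing kinase CDC7, by 0.59 to 0.78.

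Among 28 G1/S regulators, 27 could be tested in treated U2OS and 26 in AID-DIvA, since CDKN2B was too low to test in either line and CDKN2A in AID-DIvA. Before recovery 16 of the 27 fell and 4 rose in WT, over the same 22.9% and 26.0% of all genes, and 19 fell and 6 rose in KO, over 34.0% and 35.8%. After recovery 12 of the 26 were lower and 5 higher in each genotype, over 23.0% and 23.9% in WT and 19.9% and 20.2% in KO. The CDK inhibitor CDKN2C fell in all 4 treatment comparisons, by 1.55 to 1.64, whereas CDKN1A rose in all 4, by 0.92 to 1.21. CDKN1B fell by 0.76 to 1.10 and the S phase cyclin CCNA2 by 0.82 in WT and 0.82 in KO before recovery and by 0.71 in WT and 1.004 in KO after it. CDKN2D, another inhibitor, rose before recovery by 0.56 in WT and 0.79 in KO and was lower after it by 0.90 and 1.05. The repressor E2F8 fell by 1.22 in WT and 1.44 in KO before recovery, and E2F5 by 0.93 and 0.38. CDKN2A was barely counted, at 0.00 to 0.0844 CPM in untreated U2OS libraries and 0.303 to 0.469 CPM in treated ones.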

How the data were processed

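Total RNA from 24 libraries was sequenced as 100-base pairs with a stranded kit. Per the methods and labels, the authors aligned reads to hg19 (GRCh37) with STAR inside the Roddy workflow and counted them per gene with featureCounts, whose versions are not given in the sources used here. The deposited counts per gene were used as they stand, with reads from either strand, and the deposited reverse-strand counts served as an alternative. The authors' TPM values, deposited beside the counts, were used only to compare levels between genes. CPM values were computed here from the counts with TMM-scaled library totals.

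Genes were tested with edgeR 4.0.16 in R 4.3.3 (quasi-likelihood fit with robust settings, TMM, filterByExpr) and Benjamini-Hochberg adjustment over all genes tested. Each treatment or genotype comparison was fitted on its own 6 libraries, each interaction on the 12 libraries of a line, and the difference between stages on all 24. The standard error was derived from the log2 value and its F statistic. DESeq2 1.42.0, other scalings and filters, a replicate block and leaving out each library were tried as alternatives. On simulated counts for the U2OS WT treatment comparison, 42% of 100 genes changed by 0.5 on the log2 scale and 98% of 100 changed by 1 were called, with 12 false calls among 21301 genes. Members and other gene lists, the motifs and the promoters shown were chosen with earlier results of these data known. Values in every library are given for 12 members set by name and for those with the largest treatment and genotype differences. Other genes are named by the size of their difference.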

Additional observations from a re-analysis of the deposited data

Results flagged for a closer look

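The treatment response differed between the 2 stages, AID-DIvA after recovery and U2OS before it, for many members by a test of the difference itself, and cell line and recovery cannot be told apart in it. At an adjusted p below 0.05 the log2 difference was called above zero for 34 members and below zero for 3 in WT, and for 29 and 4 in KO. Of all genes, 22.6% were called above and 22.8% below zero in WT, and 21.7% and 24.3% in KO. Of the 12 members set by name, those that differed in WT were MCM5 by 1.82, MCM2 by 1.24, CDT1 by 1.21, CDC45 by 0.99, PCNA by 0.83, ORC1 by 0.83, TYMS by 0.83, MCM10 by 0.70, CDC6 by 0.35, GMNN by 0.27 and RRM2 by -0.21. In KO they were MCM5 by 1.98, MCM2 by 1.37, CDT1 by 1.10, CDC45 by 0.88, ORC1 by 0.80, TYMS by 0.64, PCNA by 0.61, MCM10 by 0.55 and RRM2 by -0.60. The WT value of GMNN was not called without U2OS WT untreated replicate 1 or any 1 of 7 other libraries, all AID-DIvA WT or U2OS WT.

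Among the other replication genes and G1/S regulators read beside the members, 2 showed a treatment response that differed between genotypes by the interaction test with edgeR. There was 1 in each line, of 49 other replication genes and of 26 regulators tested in AID-DIvA and 27 in U2OS. Of all genes tested, 0.762% were called higher and 0.451% lower in AID-DIvA, and 1.10% and 1.06% in U2OS. CDK4, a G1 cyclin-dependent kinase, fell in AID-DIvA WT and had a value near zero in KO, an interaction of 0.32 (adjusted p = 0.021). SAMHD1 rose less in U2OS KO than in WT, an interaction of -0.50 (adjusted p = 0.00318).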

How the results depend on the processing

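Over all alternatives, 8832 values of single members were recomputed, of which 8457 kept their call or lack of one, 225 lost a call and 150 gained one. No member called with the settings used throughout reversed its sign. For members not called with those settings, the sign was not compared. When a log2 value beyond 1 was also required, no member was higher in any treatment or genotype comparison, and the numbers lower were 0 in AID-DIvA WT, 0 in AID-DIvA KO, 3 in U2OS WT, 2 in U2OS KO and 0 in both genotype comparisons. For the stage difference 6 were then higher and 0 lower in each genotype. Same-numbered libraries showed little shared deviation from their group means (correlations from -0.112 to 0.0508), which does not tell whether they were prepared together. With the replicate number as a block, AID-DIvA KO had 7 members higher after recovery, the genotype comparison 2 lower in AID-DIvA, and 1 higher and 0 lower in U2OS. Library totals without TMM gave 5 higher in treated U2OS KO, 4 higher for the U2OS genotype and 7 lower for the KO stage difference, and moved the median of all genes from 0.01 to 0.10 in treated U2OS WT, from -0.01 to -0.12 for the WT stage difference and from -0.04 to -0.15 for the KO one. A fit of all 12 libraries of a line gave 6 higher and 1 lower for the AID-DIvA genotype and 15 higher for the U2OS one. The U2OS genotype count of higher members was 4 with no filter, 4 with at least 10 counts in every library, 8 with DESeq2 and 5 with reverse-strand counts, its count of lower members was 0 with DESeq2 size factors, and no filter left 2 lower in AID-DIvA. DESeq2 called 1 member in the U2OS interaction. The cause was not tested.

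Leaving out each library in turn gave, for AID-DIvA WT, 18 to 22 higher and 4 to 12 lower, for AID-DIvA KO 7 to 13 higher and 5 to 8 lower, for U2OS WT 1 to 3 higher and 28 to 39 lower, and for U2OS KO 3 higher and 35 to 39 lower. The genotype comparison ranged from 5 to 17 higher and 2 to 9 lower in AID-DIvA and from 1 to 39 higher and 0 to 2 lower in U2OS, and the U2OS interaction from 0 to 3 higher. The highest U2OS counts arose without WT untreated replicate 1. Apart from the fits without that library, shares of all genes are not given for these counts, which show only how far the calls moved. The simulation of the U2OS WT treatment test recovered 42% of the genes given a log2 change of 0.5, so changes of that size could be missed there. It changed 100 genes by 0.5 and 100 by 1 among 21301. In the real comparison 22.9% of all genes were called lower and 26.0% higher. The adjusted p depends on how many genes change, so the 42% cannot be read as the share found in the real data. What limited that test was not tested.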
